A study of Homo sapiens with 2 samples.

Results

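The type I interferon response genes described here are 41 genes chosen by symbol, and all 41 were found among the 20985 genes of the deposited RNA-seq table. The rule used no measured value, but the list was drawn up with earlier results of these data known. RNA was compared between HCC827 ZDR3, a gefitinib-resistant derivative, and its parent HCC827, an established human lung adenocarcinoma line with an activating EGFR mutation. Gefitinib inhibits the EGFR kinase. The derivative came from HCC827 cells held in gefitinib at 10 nM for 1 month, with the dose raised 3-fold each month up to 1 µM, after which 3 colonies were picked. Whether ZDR3 is 1 of these colonies or a pool is not stated. The labels do not say whether the drug was present at harvest, and no interferon treatment is named for either line. A single library represents each line. Differences therefore could not be tested against replicates, and they describe these libraries and not the conditions.

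Type I interferons are secreted proteins that signal through the receptor chains IFNAR1 and IFNAR2 and the kinases JAK1 and TYK2. These activate a transcription factor complex that holds STAT2 and IRF9 and binds the interferon-stimulated response element in the promoters of its target genes. The targets sense foreign RNA, block virus entry and translation, degrade RNA, attach the ubiquitin-like protein ISG15 to other proteins, and feed back on the pathway. Many tumour cell lines express part of this programme without added interferon.

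The response element was searched for as a core of 10 bases: GAAA, any 2 bases and a second GAAA. On the other strand this core reads as a TTTC pair. Pairs with any other spacing were not counted. RefSeq promoter sequences (GRCh38.p14, 250 bases before to 50 bases after the gene start) were matched for 33 of the 41 genes. The core stood in 21 of these 33 promoters, or 63.6%, against 1255 of all 35116 promoters in the table, or 3.57%. Matches on both strands were counted, overlapping ones included, and 14 of the 21 held more than 1. IRF7, IFITM2, MX2, OAS2, OASL, IFIT2, USP18 and TRIM22 had no entry. The 4 stretches shown are the 180 bases before the gene start in the core-bearing genes with the largest differences between the libraries, with cores in capitals, each 5′ to 3′ on the gene's strand.
IFITM3: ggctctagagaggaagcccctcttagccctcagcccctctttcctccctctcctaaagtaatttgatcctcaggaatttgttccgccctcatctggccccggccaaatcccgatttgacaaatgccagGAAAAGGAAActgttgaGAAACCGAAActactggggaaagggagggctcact
IFI27: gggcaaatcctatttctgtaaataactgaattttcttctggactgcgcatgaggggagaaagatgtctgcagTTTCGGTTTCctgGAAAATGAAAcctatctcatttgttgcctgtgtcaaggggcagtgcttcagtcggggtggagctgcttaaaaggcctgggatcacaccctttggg
IFITM1: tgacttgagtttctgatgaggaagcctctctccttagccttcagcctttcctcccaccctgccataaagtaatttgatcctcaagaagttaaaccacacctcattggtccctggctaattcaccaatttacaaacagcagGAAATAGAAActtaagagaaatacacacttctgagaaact
IFI44: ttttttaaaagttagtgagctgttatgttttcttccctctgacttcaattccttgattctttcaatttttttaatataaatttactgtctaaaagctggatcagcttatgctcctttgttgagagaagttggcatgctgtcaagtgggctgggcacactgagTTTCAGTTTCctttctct

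The IFITM3 stretch lies at chr11:320861-321040 on the minus strand and holds a pair of cores that begin 52 and 35 bases before the start. The IFI27 stretch, at chr14:94110556-94110735 on the plus strand, holds cores that begin 108 and 95 bases before the start, the first in the reverse orientation. The IFITM1 stretch at chr11:313860-314039, also on the plus strand, has a core 40 bases before the start. A second IFITM1 core begins 6 bases before the start and runs past the end of the stretch, so it is cut off and not in capitals. The IFI44 stretch is at chr1:78649609-78649788 on the plus strand with a reversed core 18 bases before the start. A match is a string of letters and not a measured binding site.

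Levels are given in normalised reads, the deposited values taken back from the log2 scale. A level of 1 equals 138 reads in the resistant and 143 in the parental library. They are not divided by gene length. The log2 ratio is resistant over parental with 1 unit added to both levels, which understates the ratio of low genes. A gene with at least 1 unit in at least 1 library was called expressed, and 2-fold differences were counted on the log2 ratio. Fold values with an interval are plain ratios of the levels, and the interval is an exact 95% binomial (Clopper-Pearson) one that covers counting error only. The libraries held 243549869 resistant and 257192607 parental gene reads. Counting error was therefore small next to most differences: all 41 intervals excluded a ratio of 1, including that of MX1, whose levels were 74.7 and 72.2 in the resistant and the parental library. Spread between cultures is unknown, so such an interval does not show a difference between the lines.

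Interferon response genes stood mostly lower in the resistant library, and unevenly. Of the 41 genes 39 were expressed. Of these 11 were at least 2-fold lower, against 9.68% of all 13777 expressed genes, and 1 was at least 2-fold higher, against 10.6% of all expressed genes. The remaining 27 lay within 2-fold. The median log2 ratio of the 39 was -0.64, from -3.72 for IFITM3 to 1.78 for HERC6, beside a median of -0.03 for all expressed genes. In all, 28 of the 39 had a ratio below 0, against 7190 of all 13777. The 11 were IFITM1, IFITM3, OAS1, OAS2, OAS3, ISG20, IFIT2, SAMD9, TRIM22, IFI27 and IFI44, while STAT2, IRF7, ISG15, MX1, PARP9 and PARP14 differed by less than 1.4-fold. Fewer expressing cells and less RNA per cell cannot be told apart in such bulk RNA.

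**Figure D1:**
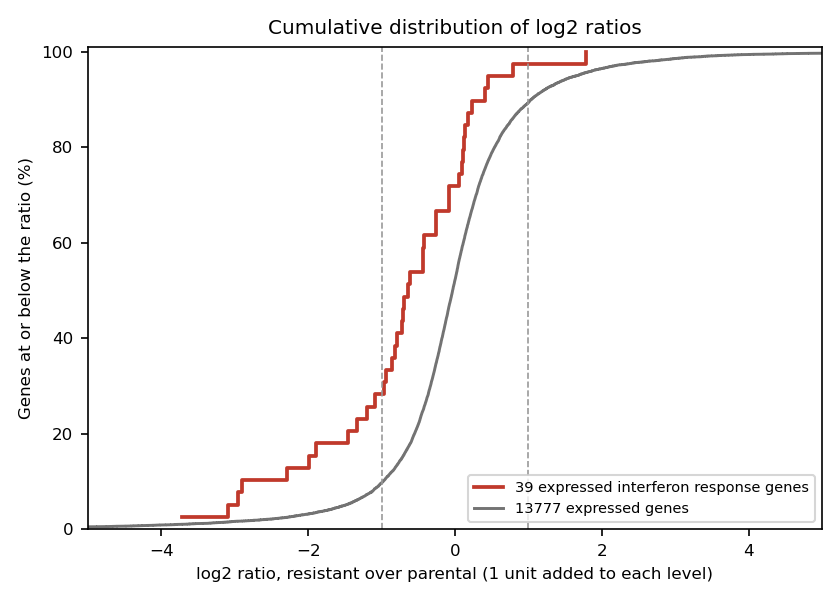
Cumulative share of genes (%) at or below each log2 ratio of resistant over parental, for the 39 expressed interferon response genes (red) and all 13777 expressed genes (grey); dashed lines mark 2-fold. From IFITM3 at -3.72 upward the red curve lies to the left of the grey one, with 11 of 39 genes left of the 2-fold lower line.

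**Figure D2:**
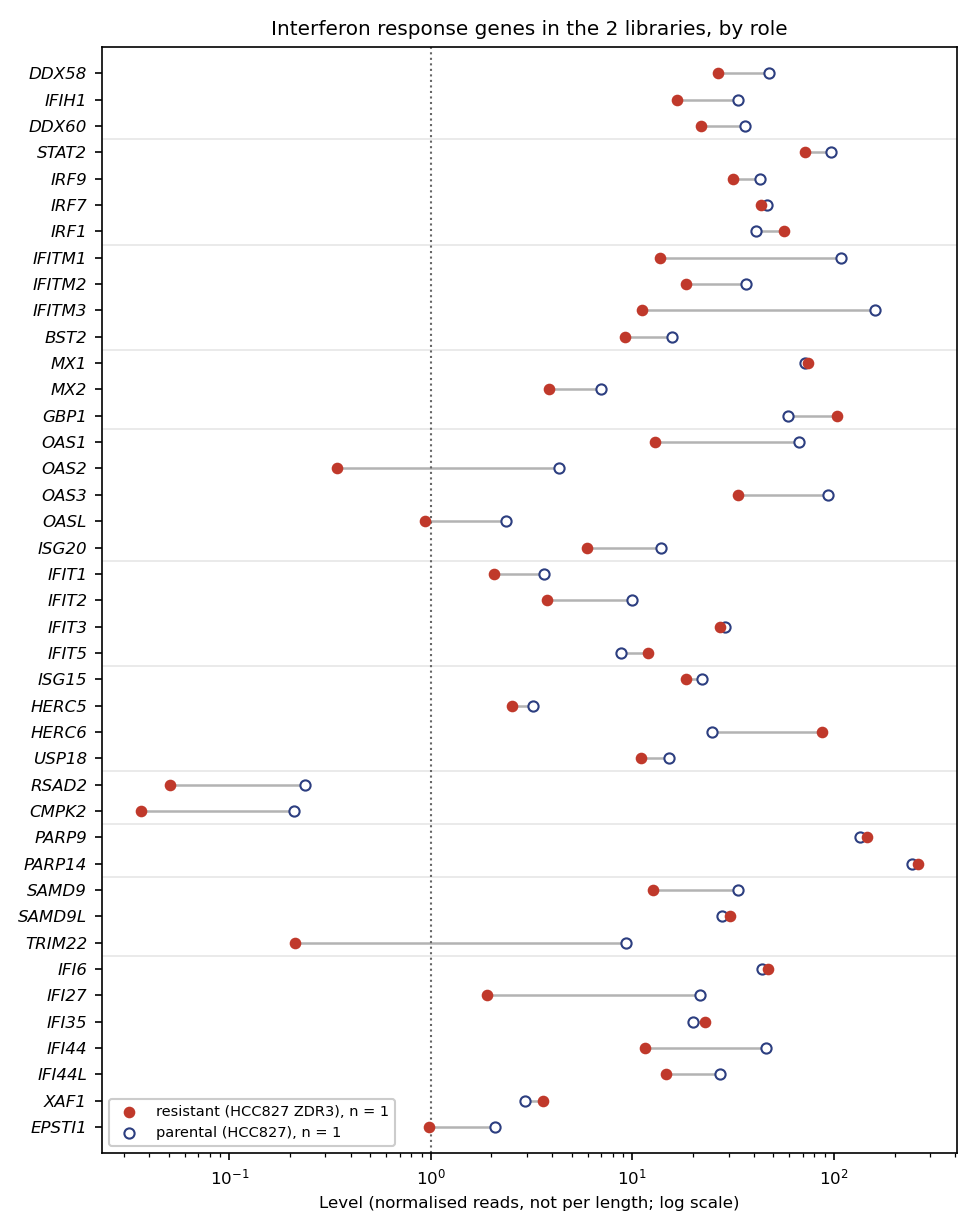
Level of each of the 41 genes in the resistant (filled red) and the parental (open blue) library, in normalised reads on a log scale, grouped by role; the dotted line marks 1 unit. TRIM22, IFITM3, OAS2, IFI27 and IFITM1 have the widest gaps with the resistant library lower among expressed genes, and HERC6 is the widest with the resistant library higher.

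The interferon-induced transmembrane proteins, which sit in cell and endosome membranes and hinder virus fusion, held the lowest log2 ratio of the 41 genes. IFITM3 was at 11.2 in the resistant and 159.8 in the parental library, 14.3-fold lower (13.6 to 15.1). IFITM1 was at 13.7 and 109.0 in the resistant and the parental library, 7.96-fold lower (7.59 to 8.36). For IFITM2 the resistant level was 18.5 and the parental level 36.5, a log2 ratio of -0.94 and so just within 2-fold on that scale. Per kilobase of exon, IFITM2 was the highest of the trio in the resistant library, at 17.5, and the lowest in the parental library, at 34.5. These neighbours on chromosome 11 are close in sequence: of the 50-base stretches in the longest coding transcript, 42.3% of IFITM1, 17.9% of IFITM3 and 10.4% of IFITM2 occur in another gene of the table, in each case in the other two. How shared reads were assigned is not stated, so single values of the trio are uncertain. Their summed level was 43.4 in the resistant and 305.4 in the parental library, 7.04-fold lower (6.85 to 7.23). This sum does not depend on how shared reads were divided within the trio. It would depend on whether such reads were dropped or counted more than once, which is not stated. BST2 (tetherin), which holds budding virus at the cell surface, was at 9.20 and 15.8 in the resistant and the parental library (log2 ratio -0.72).

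The order of the 41 genes by level per kilobase of exon differed between the libraries. In the resistant library IFI6, a mitochondrial and endoplasmic reticulum protein that counters cell death, was first at 54.6 units per kilobase, followed by GBP1 at 34.0 and PARP14 at 33.1. In the parental library IFITM3 was first at 131.9 units per kilobase, followed by IFITM1 at 104.8 and IFI6 at 50.6. IFITM3 was 16th and IFITM1 was 14th in the resistant library. With 1 library each, which neighbours in these orders truly differ cannot be said.

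The oligoadenylate synthetases, which on binding double-stranded RNA make the messenger that activates RNase L, were lower together. OAS1 was at 13.0 in the resistant and 67.2 in the parental library, 5.18-fold lower (4.93 to 5.45). OAS3 stood at 33.4 in the resistant and 93.4 in the parental library (-1.46). OAS2 had 47 resistant and 619 parental reads, or levels of 0.342 and 4.33, 12.7-fold lower (9.42 to 17.4). These 3 genes adjoin each other on chromosome 12, and the 40 expressed genes nearest to them had a median log2 ratio of -0.07. The nearest of these on each side were PTPN11 (-0.19) and RASAL1, which at -4.70 was lower than any of the 3. OASL, a relative without synthetase activity that enhances RNA sensing, was at 0.937 and 2.35 in the resistant and the parental library. Its log2 ratio of -0.79 reflects the added unit, since the plain ratio was 2.51-fold lower (2.04 to 3.10). ISG20, a 3′ exonuclease for single-stranded RNA, was at 5.96 in the resistant and 13.8 in the parental library (-1.09).

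The cytosolic RNA sensors among the 41 were all lower by less than 2-fold on the log2 ratio. DDX58 (RIG-I), which detects RNA with a triphosphate end, was at 26.6 in the resistant and 47.4 in the parental library (-0.81). IFIH1 (MDA5), which detects long double-stranded RNA, was at 16.6 and 33.3 in the resistant and the parental library (-0.96). DDX60, a helicase reported to aid RIG-I, stood at 22.0 in the resistant and 36.3 in the parental library (-0.70). The levels of DDX58 and IFIH1 lay in neighbourhoods that were lower as well, with medians of -0.57 and -0.58, as given with the plot of neighbours. DHX58 (LGP2), the regulator of both sensors and not among the 41, was at 4.16 in the resistant and 19.7 in the parental library (-2.00).

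The transcription factors of the response differed little. STAT2, a subunit of the complex that binds the response element, was at 71.7 in the resistant and 97.0 in the parental library (-0.43). IRF9, which gives that complex its DNA specificity, was at 31.7 and 43.0 in the resistant and the parental library (-0.43). IRF7, the amplifier of interferon production, was at 43.6 in the resistant and 46.4 in the parental library (-0.09). Only IRF1 among these 4 was higher, at 56.2 in the resistant and 41.1 in the parental library (0.44). Its 40 nearest expressed neighbours had a median log2 ratio of 0.40, with 32 above 0. IRF1, an activator of interferon target genes, overlaps exons of C5orf56 by 580 bases on the opposite strand, and without a stated strand setting their reads cannot be told apart. PARP9 likewise overlaps DTX3L, over 217 bases.

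The IFIT proteins, which bind foreign RNA ends and block its translation, diverged within a single cluster on chromosome 10. IFIT2 was at 3.76 in the resistant and 9.93 in the parental library (-1.20). IFIT1 was at 2.05 and 3.65 in the resistant and the parental library (-0.61). IFIT3, which binds and stabilises IFIT1, was near equal at 27.3 in the resistant and 28.8 in the parental library (-0.08). IFIT5 went the other way, with 12.0 in the resistant and 8.81 in the parental library (0.41). From IFIT2 to IFIT5 the log2 ratios spanned 1.61.

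ISG15 and its enzymes lay within 2-fold and went both ways. ISG15 itself was at 18.4 in the resistant and 22.1 in the parental library (-0.25), and HERC5, the ligase that attaches it, at 2.53 and 3.21 in the resistant and the parental library (-0.26). USP18, which removes ISG15 and blocks signalling at IFNAR2, was at 11.1 in the resistant and 15.2 in the parental library (-0.42). USP18 shares 23.0% of its 50-base stretches with USP41, and the sum of both was 1.34-fold lower (1.27 to 1.42). The remaining enzymes, which are not among the 41, were the E1 UBA7 (0.39), the E2 UBE2L6 (-0.35) and the ligase TRIM25 (0.68). Of the 6 genes of ISG15 conjugation 0 were at least 2-fold lower and 0 higher, against 9.68% and 10.6% of all expressed genes. A count over so few genes is not far from these shares.

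HERC6, a relative and chromosome 4 neighbour of HERC5, was the single gene at least 2-fold higher. Its level was 87.7 in the resistant and 24.8 in the parental library, 3.54-fold higher (3.41 to 3.67). HERC5 beside it was lower, so the pair differed by 2.04 on the log2 scale. HERC6 stood within a stretch of genes that was itself higher: of its 40 nearest expressed neighbours 32 had ratios above 0, with a median of 0.80. HERC3, the next member of that family on the same stretch, was at 76.9 in the resistant and 19.7 in the parental library (1.91). HERC6 exceeded the neighbour median by 0.98, and HERC5 lay 1.06 below it.

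The GTPases split by gene. MX1, which traps incoming viral nucleocapsids, was at 74.7 in the resistant and 72.2 in the parental library (0.05). MX2, which acts at the nuclear pore, was at 3.85 in the resistant and 6.96 in the parental library (-0.71). GBP1, a guanylate-binding protein that attacks pathogen membranes, was at 103 and 59.0 in the resistant and the parental library (0.79). GBP1 lies on chromosome 1 among genes with a median log2 ratio of 0.99, of which 30 of 40 were above 0, and it shares 4.19% of its 50-base stretches with GBP2 and GBP3.

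Among the remaining members, TRIM22 had the largest fold. This nuclear and cytoplasmic tripartite-motif protein, which restricts several viruses, had 29 resistant and 1328 parental reads. Its levels of 0.211 in the resistant and 9.30 in the parental library made it 44.1-fold lower (30.6 to 66.1), a log2 ratio of -3.09. On the same stretch of chromosome 11 its relative TRIM5 was at -0.66 and TRIM34 at -1.14, while the 40 nearest expressed genes had a median of 0.14. IFI27, a mitochondrial protein linked to cell death, was at 1.91 in the resistant and 21.6 in the parental library, 11.3-fold lower (9.97 to 12.9). Its chromosome 14 neighbours IFI27L1, at 9.73 in the resistant and 20.9 in the parental library (-1.03), and IFI27L2, at 4.21 in the resistant and 2.16 in the parental library (0.72), went opposite ways.

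IFI44, a cytoplasmic protein with antiviral activity, was at 11.6 in the resistant and 45.8 in the parental library, 3.95-fold lower (3.74 to 4.17). The adjacent IFI44L was at 14.6 in the resistant and 27.4 in the parental library (-0.86). SAMD9, a restriction factor for poxviruses, was at 12.6 in the resistant and 33.3 in the parental library (-1.33). Its adjacent paralogue SAMD9L was near even, at 30.4 in the resistant and 27.7 in the parental library (0.13). Both pairs share neighbours, so the differences of 1.04 and 1.46 between the partners are differences within 1 neighbourhood.

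PARP9 and PARP14, members of the ADP-ribosyltransferase family, had among the smallest differences, at log2 ratios of 0.13 and 0.09. PARP14 was at 262 in the resistant and 245.5 in the parental library. IFI6 (0.11), IFI35 (0.18) and XAF1 (0.23), an antagonist of the apoptosis inhibitor XIAP, were slightly higher in the resistant library. EPSTI1 was at 0.981 in the resistant and 2.09 in the parental library (-0.64).

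RSAD2 (viperin) and CMPK2, adjacent genes whose products act in the making of the chain terminator ddhCTP, were below the minimum level in both libraries. RSAD2 had 7 resistant and 34 parental reads, and CMPK2 had 5 and 30 reads in the resistant and the parental library. Their plain ratios were 4.68-fold lower (2.04 to 12.5) and 5.78-fold lower (2.22 to 19.1), which rests on few reads.

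Of the 41 genes, 23 lay in 9 clusters of members under 300000 bases apart in GENCODE release 29. Neighbourhoods were measured by the median log2 ratio of the 20 nearest expressed non-member genes on each side, or fewer at a chromosome's end. For genes outside the 41, all listed pathway genes were left out of the window as well. The median of these values over the 39 expressed genes was 0.004. Only DDX58 and IFIH1 had a neighbour median of -0.5 or below, and only HERC5, HERC6 and GBP1 had one of 0.5 or above. With the neighbour median subtracted, 12 of 39 genes lay 2-fold or more below their surroundings and 0 lay as far above them. Treated alike, 9.00% of the 13476 expressed genes with a position lay 2-fold or more below their surroundings and 9.26% as far above. The median of the 39 then was -0.69, beside -0.002 for those 13476 genes, and 29 of 39 were below 0, against 50.1%.

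**Figure D3:**
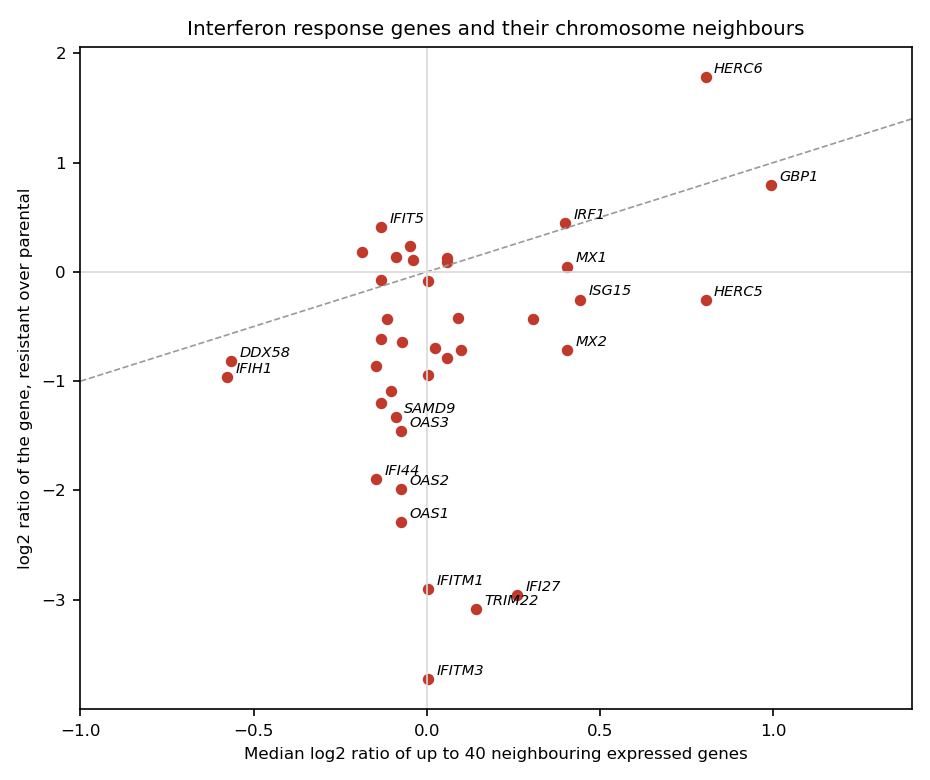
The log2 ratio of each of the 39 expressed interferon response genes (vertical) against the median log2 ratio of its up to 40 nearest expressed non-member genes (horizontal); on the dashed line both are equal. IFITM3, TRIM22, IFI27, IFITM1 and the OAS genes lie far below the line at neighbour medians near 0, while HERC6 lies 0.98 above it at a neighbour median of 0.80.

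Ratios are given by promoter core for the 31 expressed genes with a promoter entry, as a description with no test. The 8 genes with no entry include 3 of the 11 lower ones, TRIM22, OAS2 and IFIT2. Of 21 expressed genes with the core 7 were at least 2-fold lower, against the 9.68% of all expressed genes, and 0 higher, with a median log2 ratio of -0.70. Of 10 expressed genes without it in the window shown 1 was lower and 1 higher, with a median of 0.13. Among these 10, DDX58, OAS1, IFI35 and XAF1 hold GAAA pairs with 1 base between them, which were not counted. The split is therefore by the counted spacing and need not separate genes with and without the response element. Genes with 1 or more cores still ranged from IFITM3 at -3.72 to GBP1 at 0.79. OAS1, at -2.29, had none of the counted spacing in this window.

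Upstream, interferon genes themselves were barely detected. Of 20 type I and type III interferon genes found among the rows 0 reached the minimum level. Of these, 12 had 0 reads in both libraries, which does not show that they were silent. All 20 together had 33 resistant and 26 parental reads. IFNB1 had 4 reads in the resistant and 8 in the parental library, and IFNE, an epithelial interferon, was the only one with 10 reads or more in a library, at 23 and 12 in the resistant and the parental library.

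The type I receptor chains were not lower. IFNAR1 was at 99.1 in the resistant and 84.1 in the parental library (0.23), and IFNAR2 at 163.8 and 96.3 in the resistant and the parental library (0.76). Both lie on chromosome 21, where their 40 nearest expressed neighbours had median log2 ratios of 0.30 and 0.31, each with 32 above 0. IFNGR1, the ligand-binding chain for interferon gamma, was at 43.8 in the resistant and 137 in the parental library (-1.63), whereas its partner IFNGR2 was even (0.01). The type III chains IL28RA (0.46) and IL10RB (-0.56) went opposite ways. Of the 6 receptor chains 1 was at least 2-fold lower and 0 higher, against 9.68% and 10.6% of all expressed genes.

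JAK-STAT and IRF genes held both directions. TYK2, the kinase bound to IFNAR1, was at 719 in the resistant and 244 in the parental library (1.55). It was the only one of 15 expressed genes at least 2-fold higher, against 10.6% of all expressed genes. It lies on chromosome 19 among 40 expressed neighbours with a median of 1.02, of which 34 were above 0. JAK1 was near even (-0.08) and JAK2 lower (-0.85). At least 2-fold lower were 2 of the 15 (13.3%), against 9.68% of all expressed genes. STAT3, at 222.5 in the resistant and 587 in the parental library (-1.39), was 1 of them. The other had a lower ratio still and is not reported here by name. Smaller ratios were those of IRF5 (0.90), IRF2 (-0.64), IRF3 (-0.35), IRF2BP1 (0.28) and IRF2BP2 (-0.43). The median of the 15 was -0.35.

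**Figure D4:**
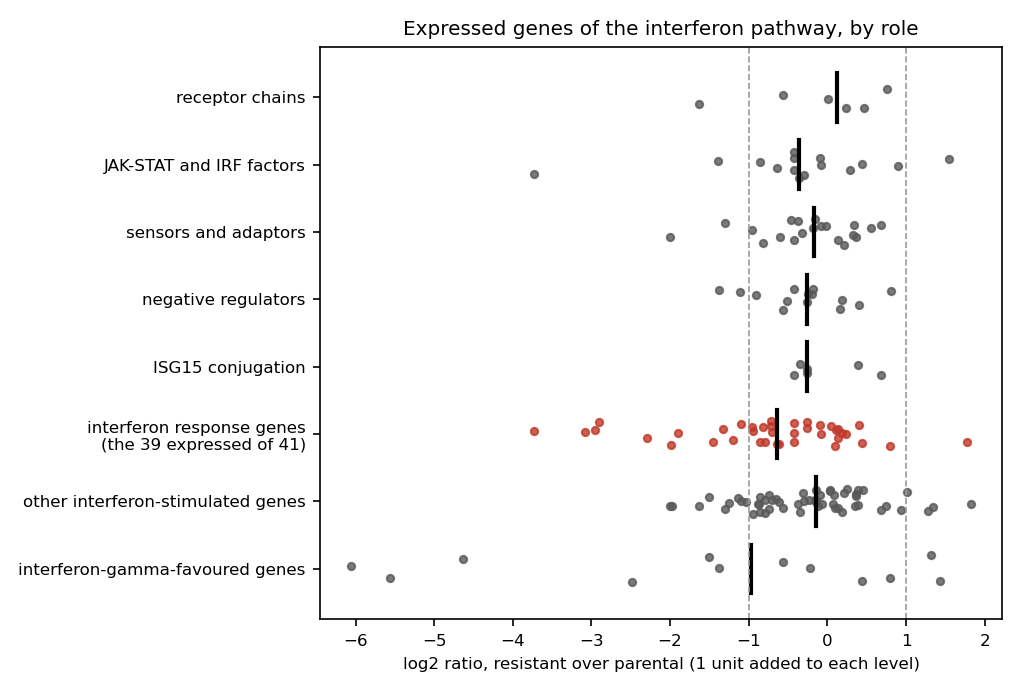
Log2 ratios of resistant over parental for expressed genes of the interferon pathway by role, 1 point per gene, with the 39 expressed interferon response genes in red; black bars are medians and dashed lines mark 2-fold. Some genes stand in more than 1 row. Medians are 0.12 for receptor chains, -0.35 for JAK-STAT and IRF factors, -0.64 for the interferon response genes and -0.15 for other interferon-stimulated genes.

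Sensors and adaptors were mostly within 2-fold. Of 20 expressed genes 2 were at least 2-fold lower, or 10%, near the 9.68% of all expressed genes. In the other direction 0 were higher, against 10.6%, and the median was -0.17. Besides DHX58, SAMHD1, a nucleotide hydrolase, had 8 resistant and 231 parental reads (-1.31), while IKBKE (-0.61) and TRIM25 (0.68) were smaller. Of 14 negative regulators 2 were at least 2-fold lower (14.3%, against 9.68%) and 0 higher (against 10.6%), with a median of -0.25. The 2 lower ones were SOCS1, a direct inhibitor of JAK kinases at 0.342 in the resistant and 2.50 in the parental library (-1.38), and SOCS2 at 9.11 and 20.8 in the resistant and the parental library (-1.11). PIAS3 (-0.91), TRIM24 (0.81), PIAS1 (-0.57) and PTPN6 (-0.51) followed.

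A wider list of interferon-stimulated genes outside the 41 showed less of a difference. Of 56 expressed genes 9 were at least 2-fold lower (16.1%, against 9.68% of all expressed genes) and 4 higher (7.14%, against 10.6%). Ratios below 0 were found for 34 (60.7%, against 52.2%), and the median was -0.15, beside -0.03. DHX58, the death ligand TNFSF10 at 5.93 in the resistant and 26.3 in the parental library (-1.98), PLSCR1 (-1.64) and APOL1 (-1.50) were the lowest. SLFN11, which arrests stalled replication forks, was the highest at 74.5 in the resistant and 20.3 in the parental library (1.83), followed by IFI30 (1.35). C19orf66, the third highest at 1.29, was named after its value was seen: like TYK2 it lies on chromosome 19, in a neighbourhood with a median of 1.22.

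Genes favoured by interferon gamma were more divided. Of 12 expressed genes, 2 of them among the 41, 6 were at least 2-fold lower (50%, against 9.68% of all expressed genes). Another 2 were higher (16.7%, against 10.6%), and the median was -0.98. The class II antigen presentation genes CD74 (-6.05) and HLA-DRA (-5.56) and their activator CIITA (-1.51) were lower. GBP5 was at 0.596 in the resistant and 38.7 in the parental library (-4.64), although it lies beside GBP1 and GBP3 on the stretch of chromosome 1 with higher ratios, and SECTM1 was lower too (-2.48). ICAM1, the leukocyte adhesion receptor, was higher, at 669 in the resistant and 248 in the parental library (1.43), within chromosome 19 neighbours of median 1.15. Of 25 expressed family relatives outside the 41, 3 were at least 2-fold lower (12%, against 9.68% of all expressed genes). These were GBP5, TRIM34 and IFI27L1. Another 2 were higher (8%, against 10.6%), namely HERC3 and GBP3 (1.32). Both shares are near those of all expressed genes.

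Markers of other cell types were low in both libraries. Of 14 leukocyte markers 6 had 0 reads in both, among them CD3E, CD3D, MS4A1, CD163 and the plasmacytoid dendritic cell genes CLEC4C and LILRA4. The list summed to 322 in the resistant and 159 in the parental library, of which CD68, which other cells also express, made up 320 and 155. The pan-leukocyte gene PTPRC had 32 reads in the resistant and 0 in the parental library. The fibroblast list summed to 1.998 in the resistant and 9.60 in the parental library, and the endothelial list to 1.26 and 0.889. Lung adenocarcinoma markers fitted the label of the parental line and were lower in the derivative. Of 9 expressed markers 7 were at least 2-fold lower and 0 higher, against 9.68% and 10.6% of all expressed genes. NKX2-1 was at 9.33 in the resistant and 95.0 in the parental library, and EPCAM at 62.4 and 527. The surfactant gene SFTPB was below the minimum level in both libraries. Their part in the lower interferon response levels was not tested.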

How the data were processed

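Per the labels' protocols, polyA+ RNA of each line was made into 1 Illumina library. The submitters' processing notes name TopHat. Its version, the build, the counting tool and the strand setting were not given there. The authors deposited 1 log2 value per gene and library in a table whose name says RPKM. Back-transformed deposited values were whole multiples of 1 step per library, within 0.1 read for 100% of genes with 1 to 100000 reads, so they are read counts times a library factor and not per length. Genes at the lowest value, which stood for 0.9 reads, were set to 0 (3573 resistant and 3504 parental genes). The column ending in Prim was read as the parental line.

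The members and all gene lists were chosen with earlier results of these data known. Every member was named, with the receptor, JAK-STAT, IRF and ISG15 genes and up to 6 of each other list by size of ratio. Other names were chosen after their values were seen. A few listed genes are not reported here by name. With 1 library per group no test was run and count models were not used. Intervals treat reads as independent molecules. Gene order, exon lengths and transcripts came from GENCODE release 29 (GRCh38), matched by Ensembl identifier, which may differ from the authors' annotation. The 2-fold call and the interval were checked on simulated counts. Python 3.11.15, NumPy 2.4.6, pandas 2.3.3, SciPy 1.17.1 and matplotlib 3.10.9 were used. Alternatives changed the pseudocount, minimum level, scaling, depth and neighbourhood.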

Additional observations from a re-analysis of the deposited data

How the results depend on the processing

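The count of at least 2-fold lower genes, 11 of 39, lay between 8 and 14 over the 9 alternatives, and the same share of all expressed genes between 6.28% and 11.6%. It was 8 with a pseudocount of 5 and also over the 30 genes with a mean of at least 1000 reads, and 14 with no pseudocount. The median of -0.64 stayed negative under each: it was -0.77 with a pseudocount of 0.1, -0.39 with a pseudocount of 5, -0.78 with no pseudocount and -0.43 over those 30 genes. The cause was not tested beyond the construction of these settings, which weight low genes differently. The 1 gene at least 2-fold higher, HERC6, became 0 with the neighbour median subtracted, which also turned the sign of GBP1, IFIT3 and MX1, none of them past 2-fold. Scaling to total reads or to a median of 0 moved no gene across 2-fold or 0. The neighbour median over the genes was 0.02 with 10 and 0.001 with 5 neighbours per side in place of 0.004. The settings with no pseudocount, with a mean read minimum and with fewer neighbours were chosen after seeing the data. Of 208 values for the other lists 16 moved and 0 reversed. Depth limits RSAD2, CMPK2, OAS2 and TRIM22, with under 50 resistant reads each. No paired analysis was possible because each group holds 1 library.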
